A study of Mus musculus with 11 samples.

Results

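Mouse embryonic fibroblasts that serve as a feeder layer were compared with undifferentiated embryonic stem (ES) cells of line R1, which had been grown on such a layer. The comparison took every array titled as feeder layer (2 arrays, numbered 6 and 10 in the titles) and every array titled as undifferentiated (3 arrays, numbered 1, 5 and 9), together 5 of the 11 arrays of the study, and all probe sets other than the manufacturer's controls. R1 is an established male mouse ES cell line. The feeder cells are labelled only as fibroblasts of mouse embryos: the labels used here do not give their strain, the embryos' age, their passage or whether their division had been stopped. The other 6 arrays hold ES cell progeny described as nestin-positive, 3 after 4+8 days and 3 after 4+11 days of differentiation. RNA was hybridised to Affymetrix MG_U74Av2 arrays, on which a probe set is a group of short probes for one transcript and gives one intensity.

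Pluripotent mouse ES cells are held in their state by a network of transcription factors around Pou5f1 (Oct4), Sox2 and Nanog, together with the cytokine LIF, which signals through the receptor pair Lifr and Il6st (gp130) to Stat3. Feeder fibroblasts are a classical source of LIF and other secreted factors, and they lay down the matrix of collagens, proteoglycans and glycoproteins on which the colonies sit. Fibroblasts are mesenchymal cells with contractile actin bundles, whereas ES cells form epithelium-like colonies held together by E-cadherin.

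Of the 8940 probe sets tested, 1820 (20.4%) differed between feeder cells and undifferentiated ES cells in limma's moderated test at a Benjamini-Hochberg adjusted p below 0.05; 898 were higher in feeder cells and 922 lower. With 1 probe set taken for each of 6650 genes, 1445 genes (21.7%) were called, 725 higher (10.9%) and 720 lower (10.8%); 121 of the called genes were at least 4-fold higher and 133 at least 4-fold lower. Counts of called list members below are to be read beside the 10.9% and 10.8% of all genes called higher and lower. The 2 feeder arrays lay above all 3 undifferentiated arrays for 32.5% of genes and below all 3 for 31.1%. Higher calls made up 49.3% of all probe set calls here, but 83.2% with the values as deposited, where the arrays have no common scale: their trimmed means lay between 86.2 and 160.2 on the 8 arrays of one scan session, and the median difference of all probe sets was 0.35 on the log2 scale before normalisation and -0.02 after it. All differences below are log2 of feeder over undifferentiated, on intensities quantile normalised and raised by 8, with the standard error after ± and p adjusted over all probe sets; the added 8 understates the change of genes with low intensities.

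The labels of feeder array 10 conflict: its title says feeder layer, while its source is given as the R1 line. The summed intensity of 10 ES cell marker genes was 208 on feeder array 6 and 193 on feeder array 10, against 18080, 17347 and 19595 on undifferentiated arrays 1, 5 and 9. The summed intensity of 11 fibroblast markers was 39070 and 46059 on the feeder arrays, against 13070, 11704 and 8557 on the undifferentiated arrays. The brightest genes weigh most in this sum: Col1a1 alone had 16256 and 17256 on the feeder arrays. Of the 11 markers 6 were called higher in feeder cells and 5 did not pass. By both sums array 10 stood beside array 6, and the Spearman correlation of these arrays over all probe sets tested was 0.969, against 0.822 to 0.846 between a feeder and an undifferentiated array. The feeder arrays and the undifferentiated arrays came from one chip lot and one scan session, in 2 fluidics runs: run 1 held feeder array 6 with undifferentiated arrays 1 and 5, and run 2 held feeder array 10 with undifferentiated array 9, which was washed under another protocol. The labels mention 3 independent cultures but do not say whether the feeder arrays come from separate cultures, so p-values may rest in part on technical spread alone. Standard errors and p-values come from a fit over all 11 arrays, so they also carry the spread of the differentiated arrays. Sox2, for example, ran from 74.3 to 2106 on the differentiated arrays and had a standard error of 1.14. In RNA from a whole culture, fewer cells of a type and less RNA per cell cannot be told apart.

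The largest rises in feeder cells included genes of the matrix and of contractile fibres. Fmod, a small proteoglycan that binds collagen fibrils, had intensities of 363 and 486 on the feeder arrays, against 16.9, 7.37 and 5.45 on the undifferentiated arrays, a difference of 4.63 ± 0.48, adjusted p = 0.000356. A second Fmod probe set was low on all 5 arrays, with 10.8 and 15.7 on the feeder arrays, against 19.5, 14.3 and 5.45 on the undifferentiated arrays, and did not pass (0.07, adjusted p = 0.947). Eln, the elastin of elastic fibres, had 1053 and 623 on the feeder arrays, against 43.8, 30.8 and 18.8 on the undifferentiated arrays (4.44 ± 0.75, adjusted p = 0.00381). Both feeder arrays stood far above every undifferentiated array for Eln and for the first Fmod probe set. Of the 112 called genes named by rule, 27 have several probe sets, and 13 of these have one that was not called; the probe set with the highest mean stands for each gene. C1qtnf3, which encodes a secreted protein of the C1q and TNF related family, followed with 377 and 449 on the feeder arrays, against 21.8, 18.7 and 9.84 on the undifferentiated arrays (4.11 ± 0.35, adjusted p = 0.00011). C1qtnf3 passed the filter on low values through the feeder arrays alone, so it had to be higher there. For Fmod the only array outside the feeder group above that filter was a 4+8 day array, at 56.8. Prss23, a serine protease gene, had 1165 and 1064 in feeder cells, against 60.9, 61.6 and 59.8 in ES cells (4.03 ± 0.55, adjusted p = 0.00163). The others among the 15 largest rises were Acta2, Ptx3, Timp3, Ccn3, Tagln, Plagl1, Actg2, Ogn, Lox, Cnn1 and Col8a1, which are described with their groups below. Ogn was the least even of them, with 694 and 150.2 on the feeder arrays, against 20.8, 29.3 and 22.5 on the undifferentiated arrays (3.38 ± 1.06, adjusted p = 0.0487); its second probe set just missed the threshold (3.54, adjusted p = 0.0509).

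**Figure D1:**
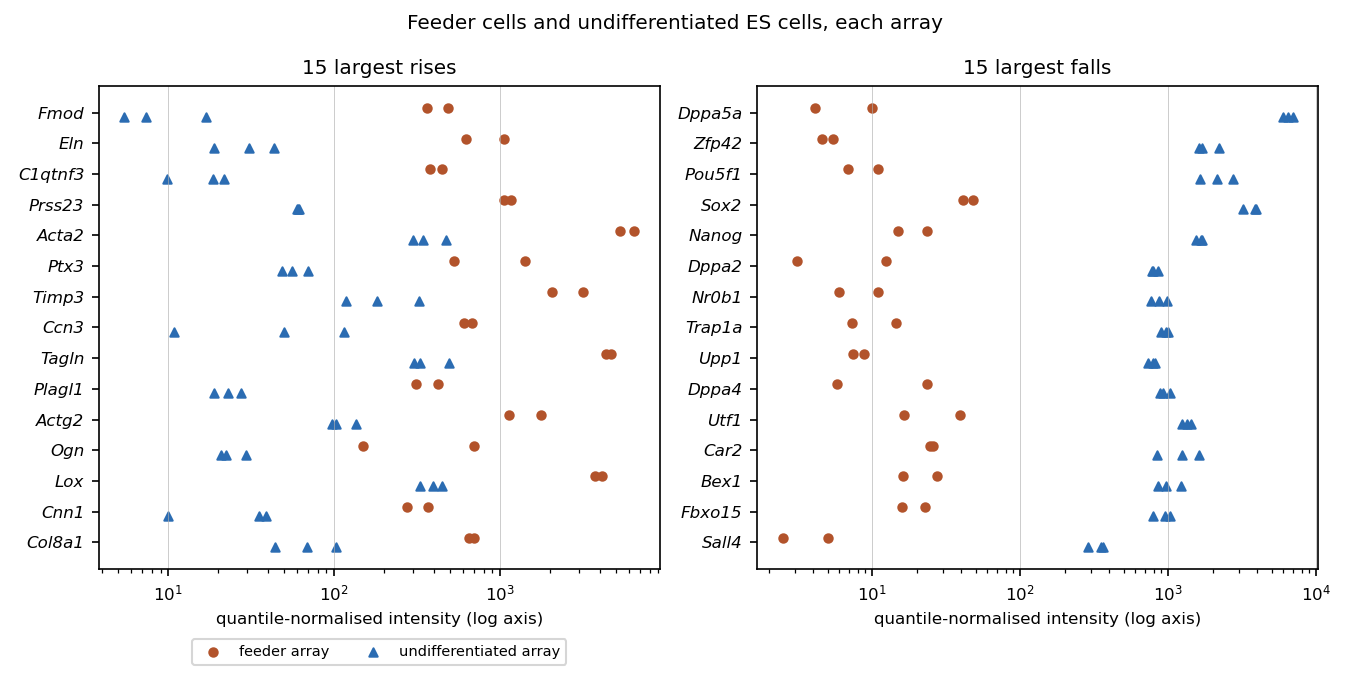
Quantile-normalised intensity (log axis) of the 15 largest rises and the 15 largest falls in feeder cells, among called genes with no overlap between the groups. Circles are the 2 feeder arrays and triangles the 3 undifferentiated arrays; Ogn shows the widest gap between feeder arrays among the rises, 694 and 150.2.

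Among the 18 collagen genes measured there were 11 that rose and 7 that missed the threshold, with a median difference of 1.83 against a median of 0.00 over all genes. With fluidics run as a block 14 were higher and 1, Col13a1, lower. Col1a1, the chain that makes up most of type I collagen, had 16256 and 17256 on the feeder arrays, against 3616, 3213 and 2106 on the undifferentiated arrays (2.52 ± 0.59, adjusted p = 0.0147). Col3a1 had 4699.7 and 4759 in feeder cells, against 1087, 1064 and 743 in ES cells (2.30 ± 0.35, adjusted p = 0.00244). Undifferentiated array 9 was the lowest of the 5 arrays for both genes. A second Col1a1 probe set did not pass (1.26, adjusted p = 0.135). Col8a1, a short-chain collagen, reached 654 and 699 on the feeder arrays and 69.05, 103 and 43.99 on the undifferentiated arrays (3.16 ± 0.40, adjusted p = 0.00106), and Col11a1 and Col5a1, chains that regulate fibril width, rose by 2.94 and 2.51. Enzymes and chaperones that fold, cut and cross-link collagen rose in 9 of 12 measured cases, with a median of 1.41. Lox, the lysyl oxidase that cross-links collagen and elastin, had 4129 and 3757 on the feeder arrays, against 397, 448 and 331 on the undifferentiated arrays (3.31 ± 0.89, adjusted p = 0.0269). Serpinh1, the collagen chaperone, rose by 2.31, Pcolce, which enhances the cutting of procollagen, by 2.11, and Sparc, a collagen-binding matrix protein, by 2.36.

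The count of collagen genes called higher was 7, 6, 10, 11 and 7 without feeder array 6, feeder array 10, undifferentiated array 1, 5 and 9 in turn, and that of the processing genes 3, 2, 5, 6 and 3. Several single calls rest on all arrays. Lox did not pass in any of these 5 fits, with adjusted p from 0.0584 without undifferentiated array 5 to 0.146 without feeder array 6. Col1a1 had 0.0927 without feeder array 6, 0.0933 without feeder array 10 and 0.056 without undifferentiated array 9. Sparc had 0.0882, 0.0867 and 0.0517 in the same 3 fits, and Col5a1 had 0.053 without feeder array 10.

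Elastic fibre genes rose in 8 of 10 measured cases, with a median of 1.60 and none lower. Besides Eln these included Fbn2, a fibrillin of developing microfibrils, with 209 and 169 on the feeder arrays, against 17.02, 13.9 and 15.05 on the undifferentiated arrays (3.07 ± 0.69, adjusted p = 0.0127), and Ltbp2 and Mfap2, further microfibril proteins, which rose by 2.35 and 1.91. Small proteoglycans and matricellular proteins rose in 13 of 16 cases, the list with the highest median of all 22, 1.99. Of the CCN family of matricellular regulators, Ccn3 had 683 and 611 on the feeder arrays, against 10.8, 115 and 50.2 on the undifferentiated arrays (3.67 ± 0.77, adjusted p = 0.00997), and Ccn4, a target of Wnt signalling, rose by 2.95. Undifferentiated array 1 was low for Ccn3 and array 5 high, but neither reached the feeder arrays. The matrix was not uniformly higher: Fn1, fibronectin, had 814 and 577 on the feeder arrays, against 650.1, 941 and 585 on the undifferentiated arrays (-0.05 ± 0.35, adjusted p = 0.943), and Dcn, decorin, had 2333 and 2849 in feeder cells, against 1857, 1442 and 816 in ES cells (0.99 ± 0.82, adjusted p = 0.454); both were chosen as examples after their values were seen. Calls in the elastic fibre list numbered 3, 4, 7, 8 and 6 without feeder array 6, feeder array 10, undifferentiated array 1, 5 and 9, and in the proteoglycan list 3, 2, 7, 11 and 6. Without feeder array 6 the adjusted p was 0.079 for Ccn3, 0.337 for Ogn, 0.0946 for Ccn4, 0.0983 for Fbn2 and 0.0583 for Mfap2. Without feeder array 10 it was 0.0643 for Ccn3, 0.0743 for Ogn, 0.132 for Ccn4, 0.0702 for Fbn2 and 0.0934 for Ltbp2. Ogn also failed without undifferentiated array 1, 5 or 9 (0.114, 0.0936 and 0.115), and Ccn4 without array 1 or 9 (0.0568 and 0.0703).

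Among matrix proteases and their inhibitors 7 of 18 rose, 1 fell and 10 did not pass (median 0.87). Lower calls were 2 with fluidics run as a block and 3 on the 5 arrays alone. Timp3, a matrix-bound inhibitor of metalloproteinases, had 2070.2 and 3165 on the feeder arrays, against 118, 323 and 181 on the undifferentiated arrays (3.69 ± 0.51, adjusted p = 0.00165). Adam12 and Serpinf1, the secreted serpin PEDF, rose by 2.33 and 1.96. A second, dim Serpinf1 probe set did not pass (0.23, adjusted p = 0.769). The gene that fell was Mmp3, stromelysin, a protease that fibroblasts secrete: it had 213 and 361 on the feeder arrays, against 1121, 2487 and 1015 on the undifferentiated arrays (-2.32 ± 0.55, adjusted p = 0.0167). On the same scale its mean was 9.82 after 4+8 days and 12.5 after 4+11 days of differentiation, so the arrays of undifferentiated cells held the highest values of the study and undifferentiated array 5 the highest of all. Its adjusted p was 0.146 without feeder array 6, 0.0592 without feeder array 10 and 0.0502 without undifferentiated array 5. Adam12 (0.122) and Serpinf1 (0.0687) failed without feeder array 10, and the list's higher calls numbered 3, 2, 3, 6 and 3 without feeder array 6, feeder array 10 and undifferentiated array 1, 5 and 9.

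Genes of the contractile cytoskeleton list, which also holds genes such as Lmna, S100a6 and Anxa1, were mostly higher in feeder cells. Of 23 measured members 15 rose and none fell, with a median of 1.63. Myh11 passed the filter on low values through the feeder arrays alone, and without it 14 of 22 rose (median 1.56). With fluidics run as a block Csrp2 was lower (adjusted p = 0.0134). Acta2, smooth muscle actin and a mark of contractile fibroblasts, had 6463 and 5311 on the feeder arrays, against 345, 473 and 299 on the undifferentiated arrays (3.97 ± 0.48, adjusted p = 0.000848). Tagln, transgelin, which binds actin filaments, had 4381 and 4699.7 in feeder cells, against 305, 493 and 329.6 in ES cells (3.60 ± 0.35, adjusted p = 0.000291). Cnn1, calponin, had 367 and 275 in feeder cells, against 35.3, 9.98 and 38.7 in ES cells (3.30 ± 0.42, adjusted p = 0.00113). The feeder arrays were the highest for all 3 genes. Actg2, another smooth muscle actin, rose by 3.58, and probe sets of the actin family can bind related transcripts. Myl9, a regulatory myosin light chain, and Vcl, vinculin of focal adhesions, rose by 2.17 and 1.82; they are named here for their promoter sequences, after their values were seen. The count of higher members was 10, 10, 13, 14 and 13 without feeder array 6, feeder array 10 and undifferentiated array 1, 5 and 9. Vcl had adjusted p of 0.0654 and 0.0513 without feeder array 6 and 10.

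Serum response factor binds the CArG box, a motif known from promoters of smooth muscle genes. A search for this motif covered the 250 bases before the annotated start, allowing at most 1 G or C in the motif's core. A match stood in 5 of the 11 risen members of the contractile cytoskeleton list that have a promoter entry (15 had risen). Over all 27025 genes with such an entry the share was 9.78%. The motif reads the same on both strands. The 5 were Acta2, Myl9, Vcl, Cnn2 and Lmna, of which Lmna lost its call without any one of the 5 arrays (adjusted p from 0.0564 without undifferentiated array 5 to 0.168 without feeder array 10). The upstream sequences of 3 of them, read 5′ to 3′ on the gene's strand from RefSeq (GRCm38.p6), are shown with the matches in capitals, because these are risen contractile genes that hold the motif: Acta2 at chr19:34255374-34255623 on the minus strand, Myl9 at chr2:156775214-156775463 and Vcl at chr14:20929148-20929397 on the plus strand. A match is a description of the letters and was not measured as a binding site.
Acta2: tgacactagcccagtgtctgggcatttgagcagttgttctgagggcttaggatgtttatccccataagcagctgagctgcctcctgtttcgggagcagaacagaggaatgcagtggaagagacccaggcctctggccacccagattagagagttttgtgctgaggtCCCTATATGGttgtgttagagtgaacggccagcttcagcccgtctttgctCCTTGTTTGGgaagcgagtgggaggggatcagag
Myl9: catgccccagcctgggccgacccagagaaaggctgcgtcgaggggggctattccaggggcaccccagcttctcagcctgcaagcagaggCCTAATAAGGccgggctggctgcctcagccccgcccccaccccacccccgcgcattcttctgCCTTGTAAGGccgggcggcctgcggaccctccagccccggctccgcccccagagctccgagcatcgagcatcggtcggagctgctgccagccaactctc
Vcl: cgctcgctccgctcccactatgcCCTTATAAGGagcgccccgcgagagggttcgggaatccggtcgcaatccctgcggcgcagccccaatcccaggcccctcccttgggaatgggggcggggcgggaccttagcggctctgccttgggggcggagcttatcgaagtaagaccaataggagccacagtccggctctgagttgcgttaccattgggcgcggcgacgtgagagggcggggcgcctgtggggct

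Surface proteins of fibroblasts were divided: 9 of 21 rose, none fell and 12 did not pass (median 1.10). Vcam1, an adhesion receptor for integrins, had 599 and 616 on the feeder arrays, against 82.2, 145 and 88.2 on the undifferentiated arrays (2.49 ± 0.64, adjusted p = 0.0225); of its other probe sets 1 passed and 1 did not (adjusted p = 0.136). Cdh11, a mesenchymal cadherin, rose by 2.25, and Pdgfrb, a receptor for platelet-derived growth factor, by 1.69. Thy1, a surface glycoprotein often used to mark fibroblasts, had 1116 and 2308 on the feeder arrays, against 834, 719 and 654 on the undifferentiated arrays, and did not pass the test (1.13 ± 0.60, adjusted p = 0.225). Both feeder arrays were above every ES array, array 10 by the wider margin, and the difference was 0.52 within fluidics run 1 and 1.81 within run 2. On the 5 arrays alone Thy1 was called higher (adjusted p = 0.035). The list had 12 higher calls on the 5 arrays alone and 11 with fluidics run as a block. Without feeder array 6, feeder array 10 and undifferentiated array 1, 5 and 9 the list had 2, 1, 6, 8 and 5 higher calls. Vcam1 had adjusted p of 0.123, 0.119, 0.0686 and 0.0705 without feeder array 6, feeder array 10, undifferentiated array 1 and 9. Cdh11 had 0.0982 without feeder array 6 and Pdgfrb 0.0523 without feeder array 10.

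Secreted growth factors and their antagonists rose in 14 of 34 measured cases with none lower (median 1.05). Ptn, the heparin-binding factor pleiotrophin, had 328 and 157 on the feeder arrays, against 13.7, 30.3 and 14.6 on the undifferentiated arrays (3.15 ± 0.51, adjusted p = 0.00334). Igfbp3, which binds insulin-like growth factors, had 1217 and 937 in feeder cells, against 89.5, 151 and 116 in ES cells (3.11 ± 0.43, adjusted p = 0.00165). A second Igfbp3 probe set did not pass (1.60, adjusted p = 0.224). Both feeder arrays were above all ES arrays for these genes, with array 6 the higher. Tgfb3, of the transforming growth factor family, and Gas6, a ligand of the TAM receptor kinases, rose by 2.41 and 2.39. Of the factors known to act on ES cell self-renewal, Lif and Fgf2 were not among the probe sets tested. Bmp4 had 424 and 218 on the feeder arrays, against 164, 91.9 and 138 on the undifferentiated arrays (1.20 ± 0.56, adjusted p = 0.168). It did not pass, although both feeder arrays lay above every undifferentiated array. Bmp4 was called higher with fluidics run as a block (adjusted p = 0.0361) and on the 5 arrays alone (0.0389). Inhba, the activin A subunit, had 225 and 229 in feeder cells, against 103, 243 and 170.3 in ES cells (0.46 ± 0.43, adjusted p = 0.513). Inhba did not pass either, and undifferentiated array 5 lay above both feeder arrays for it. The list's calls numbered 7, 5, 13, 13 and 12 without feeder array 6, feeder array 10 and undifferentiated array 1, 5 and 9, and Gas6 had an adjusted p of 0.0644 without feeder array 10.

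In the LIF receptor and Stat3 pathway, 4 of 20 genes rose, 1 fell and the other 15 missed the threshold (median -0.26). Lower calls were 3 with fluidics run as a block and 4 on the 5 arrays alone. Il6st, the gp130 subunit shared by the LIF and interleukin-6 receptors, had 857 and 929.9 on the feeder arrays, against 209, 188 and 167 on the undifferentiated arrays (2.21 ± 0.33, adjusted p = 0.00244). A second Il6st probe set did not pass (1.06, adjusted p = 0.0744). Its partner Lifr had 86.3 and 104 on the feeder arrays, against 122, 179.7 and 133 on the undifferentiated arrays (-0.56 ± 0.44, adjusted p = 0.433); the difference between the subunits was not tested. Osmr, the oncostatin M receptor that also pairs with gp130, had 671 and 704 in feeder cells, against 200.5, 195 and 140.5 in ES cells (1.91 ± 0.56, adjusted p = 0.0377). The kinase Jak2 rose by 1.10. Socs2, a feedback inhibitor of cytokine signalling, was lower, with 149 and 141 on the feeder arrays, against 452, 497 and 721 on the undifferentiated arrays (-1.86 ± 0.41, adjusted p = 0.0118). Osmr failed in all 5 fits that leave out an array, with adjusted p from 0.0755 without undifferentiated array 5 to 0.166 without feeder array 10. Jak2 had 0.215, 0.0719 and 0.0715 without feeder array 10, undifferentiated array 5 and 9, and Socs2 0.0798 and 0.0804 without feeder array 6 and 10. The list's higher calls were 2, 1, 2, 1 and 1 and its lower calls 0, 0, 1, 1 and 1 without feeder array 6, feeder array 10 and undifferentiated array 1, 5 and 9.

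Of 25 chemokine and inflammatory genes 20 did not pass (median 0.34). In this list 4 rose and 1 fell, beside 10.9% of all genes called higher and 10.8% lower. With fluidics run as a block 7 were higher and 0 lower. Ptx3, the long pentraxin of innate immunity and matrix, had 531 and 1416 on the feeder arrays, against 56.1, 48.3 and 69.8 on the undifferentiated arrays (3.74 ± 0.44, adjusted p = 0.000737). Cxcl12, the ligand of Cxcr4, had 475 and 190.1 in feeder cells, against 27.7, 47.9 and 21.5 in ES cells (2.99 ± 0.61, adjusted p = 0.00883), and Cxcl14 rose by 2.30. The feeder arrays differed among themselves here: array 10 was the higher for Ptx3 and array 6 for Cxcl12. Cxcl5, a neutrophil chemoattractant, had 473 and 1687 on the feeder arrays, against 120.2, 151 and 328 on the undifferentiated arrays (2.25 ± 0.66, adjusted p = 0.0396). Cxcl1, a related chemokine chosen as an example after its values were seen, had 404 and 1371 in feeder cells, against 332, 2209.9 and 1857 in ES cells (-0.57 ± 0.97, adjusted p = 0.741), so 2 ES arrays lay above both feeder arrays, while its means were 27.3 and 44.3 after 4+8 and 4+11 days. The gene that fell was Il11, a cytokine of the gp130 family named after its values were seen, with 13.3 and 37.1 on the feeder arrays, against 40.2, 171 and 205 on the undifferentiated arrays (-1.98 ± 0.59, adjusted p = 0.0415). Cxcl5 had adjusted p of 0.323, 0.116 and 0.0993 without feeder array 10, undifferentiated array 1 and 5, and Cxcl12 0.0991 without feeder array 6. Il11 had 0.29, 0.0754, 0.117 and 0.128 without feeder array 6, feeder array 10, undifferentiated array 5 and 9, 0.0507 with fluidics run as a block, 0.0683 on the 5 arrays alone, 0.0546 without the filter on low values and 0.0558 with the low pseudocount. Higher calls numbered 3, 3, 3, 3 and 4 and lower calls 0, 0, 1, 0 and 0 without feeder array 6, feeder array 10 and undifferentiated array 1, 5 and 9.

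Genes of the pluripotency network were lower in feeder cells almost without exception: 31 of 34 measured members fell, none rose, and the median was -4.001. Of the fallen members 11, Pou5f1 and Zfp42 among them, passed the filter on low values through the undifferentiated arrays alone, so they had to be lower in feeder cells. Of the other 23 members 20 fell (median -3.92). Among these, Utf1 had only feeder array 10, at 39.3, above that filter outside the undifferentiated group. Dppa5a, an RNA-binding protein gene of early embryos and ES cells, had 9.98 and 4.15 on the feeder arrays, against 6009.9, 6927 and 6463 on the undifferentiated arrays (-8.77 ± 0.64, adjusted p = 7.01e-05). Zfp42 (Rex1), a zinc finger gene, had 4.59 and 5.41 in feeder cells, against 1691, 1621 and 2195 in ES cells (-7.14 ± 0.20, adjusted p = 7.68e-08). Pou5f1 had 10.9 and 6.89 on the feeder arrays, against 2125, 1649 and 2724 on the undifferentiated arrays (-6.99 ± 0.26, adjusted p = 5.87e-07). A second, dim Pou5f1 probe set did not pass (-1.07, adjusted p = 0.0897). Intensities on the feeder arrays were at the bottom of the scale for these genes. Nanog had 23.4 and 15.1 in feeder cells, against 1696, 1548 and 1671 in ES cells (-5.93 ± 0.26, adjusted p = 1.61e-06), and Sox2 had 48.4 and 41.02 in feeder cells, against 3838, 3230.3 and 3909 in ES cells (-6.12 ± 1.14, adjusted p = 0.00604). Sox2, which neural progenitors also express, kept means of 616 and 894 after 4+8 and 4+11 days, whereas Nanog had 34.2 and 20.5. Of the other large falls, Dppa2 and Dppa4, which encode a pair of chromatin proteins, fell by 5.76 and 5.52, and Nr0b1 (Dax1) by 5.76. Utf1, a chromatin-associated coactivator, fell by 5.31, Fbxo15 by 5.09 and Sall4 by 4.86. Fgf4, the growth factor that primes ES cells for differentiation, had 73.5 and 58.6 on the feeder arrays, against 762, 558 and 695 on the undifferentiated arrays (-3.19 ± 0.30, adjusted p = 0.000229).

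The 3 members that did not pass were Klf4, Tbx3 and Mras, named after their values were seen. Klf4, a factor used to reprogram somatic cells, had 487 and 602 on the feeder arrays, against 324, 1200.04 and 832 on the undifferentiated arrays (-0.34 ± 0.61, adjusted p = 0.754). The feeder arrays fell within the range of the ES arrays for this gene. Tbx3 had 25.6 and 32.3 in feeder cells, against 28.9, 36.5 and 58.8 in ES cells (-0.38 ± 0.59, adjusted p = 0.712), and Mras 92.4 and 73.6 in feeder cells, against 108, 119.8 and 106 in ES cells (-0.39 ± 0.58, adjusted p = 0.694). The list held 28, 28, 30, 30 and 30 lower calls without feeder array 6, feeder array 10 and undifferentiated array 1, 5 and 9. Sox2 was the one gene named above that lost its call, with adjusted p of 0.0515 and 0.0522 without feeder array 6 and 10. Outside the list, the 15 largest falls held Trap1a, the tumour rejection antigen P1A (-5.70 ± 0.46, adjusted p = 9.97e-05), Upp1, a uridine phosphorylase (-5.61 ± 0.58, adjusted p = 0.000356; a second probe set had -0.06, adjusted p = 0.895), Car2, a carbonic anhydrase (-5.17 ± 0.39, adjusted p = 7.87e-05), and Bex1 (-5.11 ± 0.61, adjusted p = 0.000779).

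Pou5f1 and related POU factors bind the octamer, whose core TTTGCAT was searched on both strands in the same upstream windows. It stood in 3 of the 22 fallen pluripotency genes that have a promoter entry (31 had fallen), namely Nanog, Sox2 and Zfp42, against 4.65% of 27025 genes. The sequences of Nanog, at chr6:122707239-122707488 on the plus strand, and Zfp42, at chr8:43307010-43307259 on the minus strand (GRCm38.p6, RefSeq, 5′ to 3′ on the gene's strand), are shown because these genes are among the largest falls; capitals mark the core, which reads on the gene's own strand in both.
Nanog: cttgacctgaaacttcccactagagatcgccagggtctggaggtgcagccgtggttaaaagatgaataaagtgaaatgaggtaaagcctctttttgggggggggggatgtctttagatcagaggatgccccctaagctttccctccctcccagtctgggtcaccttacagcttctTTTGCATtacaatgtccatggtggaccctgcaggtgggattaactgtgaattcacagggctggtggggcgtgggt
Zfp42: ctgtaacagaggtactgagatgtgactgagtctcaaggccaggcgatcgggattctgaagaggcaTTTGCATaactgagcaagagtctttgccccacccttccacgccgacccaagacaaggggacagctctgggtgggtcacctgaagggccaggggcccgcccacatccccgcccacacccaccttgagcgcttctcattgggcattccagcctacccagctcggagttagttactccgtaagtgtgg

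**Figure D2:**
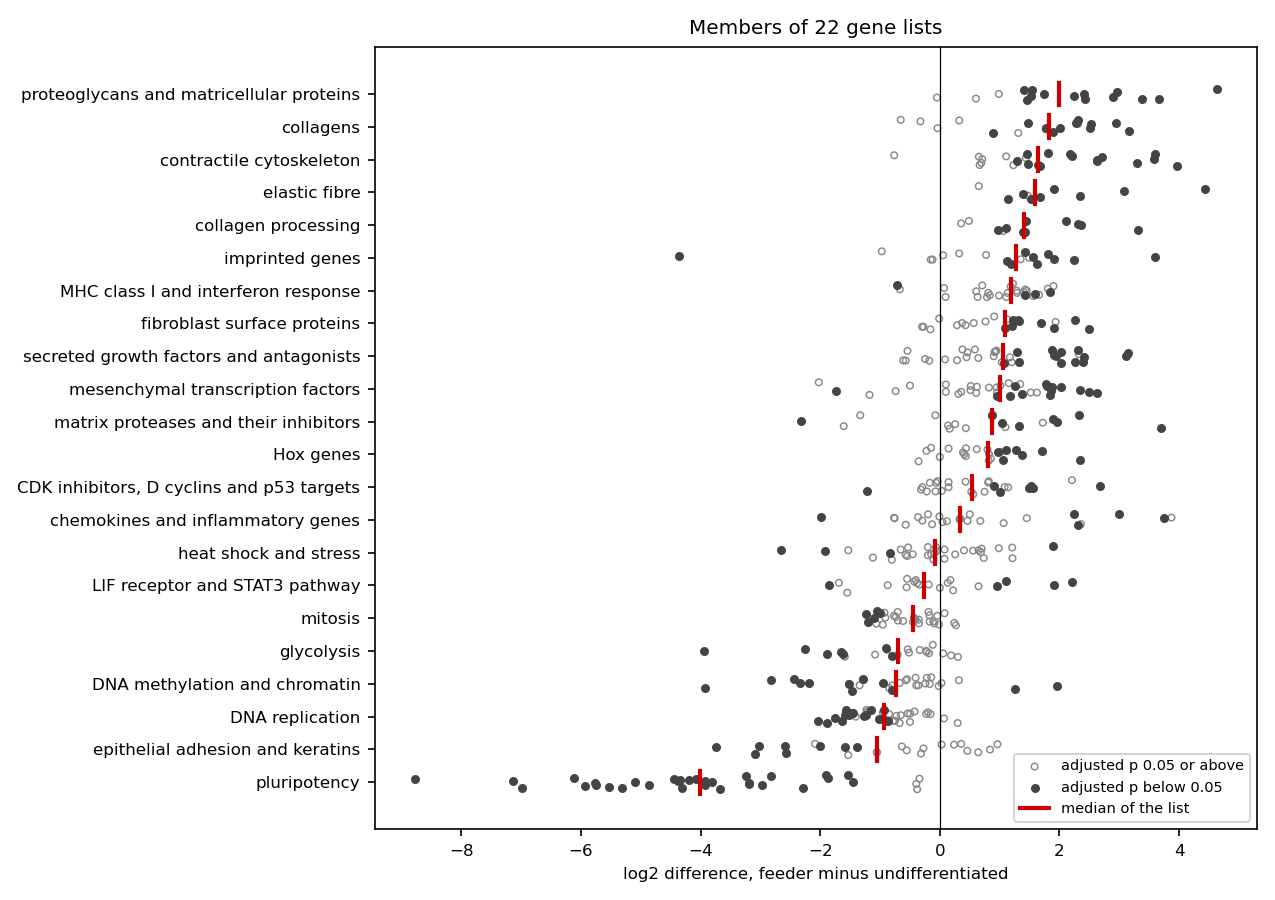
Log2 difference, feeder minus undifferentiated, of every measured member of 22 gene lists, ordered by their medians (red bars); filled points passed an adjusted p below 0.05 and open points did not. The medians run from -4.001 for pluripotency to 1.99 for proteoglycans and matricellular proteins.

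Epithelial adhesion genes were lower in part: 8 of 23 fell, none rose and 15 did not pass (median -1.05). The count was 13 on the 5 arrays alone. Epcam, an adhesion protein of ES cells and epithelia, had 3 and 1.67 on the feeder arrays, against 143, 108 and 139.6 on the undifferentiated arrays (-3.74 ± 0.55, adjusted p = 0.00223). Claudins of tight junctions followed, Cldn6 with 9.62 and 9.20 in feeder cells, against 138, 115 and 153 in ES cells (-3.03 ± 0.53, adjusted p = 0.00465) and Cldn4 with a fall by 2.59, as did Spint1, an inhibitor of epithelial serine proteases, which fell by 3.08. Cdh1, E-cadherin, had 96.4 and 91.5 on the feeder arrays, against 128, 119 and 110.2 on the undifferentiated arrays (-0.31 ± 0.17, adjusted p = 0.235); both feeder arrays were below every ES array, the difference did not pass the test, and its sign turned with the values as deposited (0.12). Cdh2, the N-cadherin of mesenchymal and neural cells, was higher, with 309 and 287 on the feeder arrays, against 101, 89.6 and 85.7 on the undifferentiated arrays (1.62 ± 0.24, adjusted p = 0.00218). The list held 5, 4, 6, 7 and 7 lower calls without feeder array 6, feeder array 10 and undifferentiated array 1, 5 and 9, and Spint1 had an adjusted p of 0.0614 without feeder array 10.

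Transcription factors of mesenchyme rose in 13 of 35 cases and 1 fell, with 21 not passing (median 1.01). The count of higher members was 22 with fluidics run as a block, 22 on the 5 arrays alone and 19 on the 8 arrays of the scan session. Meox2 passed the filter on low values through the feeder arrays alone. Nfix, of the nuclear factor I family, had 583 and 650.4 on the feeder arrays, against 104, 84.4 and 122 on the undifferentiated arrays (2.50 ± 0.24, adjusted p = 0.000261), and its relative Nfib had 535 and 422 in feeder cells, against 65.4, 65.8 and 81.5 in ES cells (2.62 ± 0.48, adjusted p = 0.00538). Meox2, a homeobox gene of somites and limb muscle, rose by 2.35 and Tbx15, a T-box gene of limb and skin mesenchyme, by 2.02. For Tbx15 the only array outside the feeder group above that filter was undifferentiated array 1, at 34.2. Snai2 (Slug), a factor of epithelial-mesenchymal transition, an example chosen after its values were seen, had 982 and 1039 on the feeder arrays, against 379, 291 and 184 on the undifferentiated arrays (1.86 ± 0.39, adjusted p = 0.00967). The gene that fell was Klf9, also named after its values were seen (-1.73 ± 0.27, adjusted p = 0.00294). Hox genes, which pattern the body axis, had 31 members on the array, of which 9 fell below the filter on low values. Of the 22 tested 7 were called higher and none lower, but Hoxa7, Hoxa11 and Hoxd11 passed the filter through the feeder arrays alone, so they had to be higher there. Of the other 19 members 4 rose (median 0.62). Hoxa7 had 84.9 and 68.6 on the feeder arrays, against 9.33, 8.40 and 7.97 on the undifferentiated arrays (2.35 ± 0.20, adjusted p = 0.000129), and Hoxd8 150.05 and 164 in feeder cells, against 62.3, 57.97 and 59.6 in ES cells (1.28 ± 0.18, adjusted p = 0.00184). Hoxd11 rose by 1.72 and Hoxc8 by 1.37. Higher calls without feeder array 6, feeder array 10 and undifferentiated array 1, 5 and 9 numbered 4, 7, 9, 8 and 7 for the mesenchymal list and 2, 2, 3, 6 and 4 for the Hox genes. Nfib had an adjusted p of 0.0599 without feeder array 6, Snai2 had 0.0688 and 0.0713 without feeder array 6 and 10, Hoxc8 had 0.0882 and 0.0648 without feeder array 6 and 10, and Hoxd11 had 0.129, 0.066 and 0.0552 without feeder array 6, 10 and undifferentiated array 1.

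DNA replication genes were lower in feeder cells in 16 of 38 cases with none higher (median -0.93). Mcm5, a subunit of the replicative helicase, had 462 and 385 on the feeder arrays, against 1776, 1696 and 1792 on the undifferentiated arrays (-2.04 ± 0.31, adjusted p = 0.00263). Second, dim probe sets of Mcm5 (-0.37, adjusted p = 0.746) and of Rfc5 (-0.09, adjusted p = 0.845) did not pass. Mcm2 of the same helicase had 222 and 270.3 in feeder cells, against 945, 759.8 and 826 in ES cells (-1.75 ± 0.39, adjusted p = 0.0128). Rfc5, of the clamp loader, fell by 1.89 and Orc1, of the origin recognition complex, by 1.63. Mitosis genes fell in 5 of 30 cases with none higher (median -0.44), beside 10.8% of all genes called lower. Among those that fell were Kif22, Cdc20, Cdc25a and Aurka, by 1.24, 1.20, 1.10 and 1.05. Cdk1, the mitotic kinase, had 590.5 and 939 on the feeder arrays, against 951, 876 and 1032 on the undifferentiated arrays (-0.35 ± 0.30, adjusted p = 0.467), and Mki67, a mark of cycling cells, 357 and 660.2 in feeder cells, against 477, 297 and 457 in ES cells (0.27 ± 0.36, adjusted p = 0.665); feeder array 10 exceeded array 6 for both. The sign for Cdk1 turned with the values as deposited (0.11), and that for Mki67 without feeder array 10 (-0.17).

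These cell cycle counts moved with the processing. With the values as deposited 7 replication and 0 mitosis genes were called lower, against 28 and 13 with fluidics run as a block and 27 and 13 on the 5 arrays alone. At an unadjusted p below 0.05, 25 replication and 10 mitosis genes were lower. Without feeder array 6, feeder array 10 and undifferentiated array 1, 5 and 9 the counts were 3, 8, 10, 12 and 10 for replication and 0, 1, 2, 2 and 2 for mitosis. Cdc20 and Aurka failed in all 5 of these fits, with adjusted p up to 0.25 and 0.29 without feeder array 6. In that fit Kif22 had 0.0627, Cdc25a 0.0967, Mcm2 0.107, Rfc5 0.0769 and Orc1 0.166. Mcm2 and Cdc25a also failed without feeder array 10 (0.065 and 0.0512), and Orc1 without undifferentiated array 1 or 9 (0.0508 and 0.0546).

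Inhibitors of cyclin-dependent kinases, D cyclins and p53 targets rose in 6 of 26 cases and 1 fell (median 0.54). Higher calls numbered 10 with fluidics run as a block, 11 on the 5 arrays alone and 10 with the values as deposited. Fas, the death receptor and a p53 target, had 80.5 and 73.5 on the feeder arrays, against 5.16, 7.69 and 3.50 on the undifferentiated arrays (2.67 ± 0.47, adjusted p = 0.00448), and passed the filter on low values through the feeder arrays alone. Phlda3 and Ccng1, further p53 targets, rose by 1.53 and 1.49, and Cdkn1c (p57), an imprinted inhibitor, by 1.56. Cdkn1a (p21) had 748 and 747 on the feeder arrays, against 292, 476 and 303 on the undifferentiated arrays (1.08 ± 0.37, adjusted p = 0.0658) and did not pass. A second Cdkn1a probe set did, with 779 and 700.1 on the feeder arrays, against 268, 535 and 284 on the undifferentiated arrays (1.08 ± 0.32, adjusted p = 0.0408); the groups did not overlap on either. Ccnd1, cyclin D1, had 632 and 505 in feeder cells, against 474, 593 and 471 in ES cells (0.15 ± 0.41, adjusted p = 0.851), and its difference was -0.013 without feeder array 6. The gene that fell was Ccne1, cyclin E1 (-1.22 ± 0.20, adjusted p = 0.00317), named after its values were seen; its adjusted p was 0.064 with the values as deposited. Higher calls numbered 2, 3, 5, 5 and 5 without feeder array 6, feeder array 10 and undifferentiated array 1, 5 and 9. Without feeder array 6 the adjusted p was 0.0655 for Phlda3, 0.109 for Ccng1 and 0.178 for Cdkn1c. Phlda3 had 0.0642 without feeder array 10 and Cdkn1c 0.0621 without undifferentiated array 9.

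Chromatin genes were lower in 10 of 30 cases and higher in 2 (median -0.73). Lower calls were 16 with fluidics run as a block and 17 on the 5 arrays alone. Jarid2, a cofactor of Polycomb repressive complex PRC2, had 98.3 and 108 on the feeder arrays, against 1657, 1278 and 2244 on the undifferentiated arrays (-3.92 ± 0.32, adjusted p = 0.000104). Phc1, a subunit of the other Polycomb complex, had 80.1 and 88.6 in feeder cells, against 646, 520.5 and 806 in ES cells (-2.83 ± 0.33, adjusted p = 0.000659). Jarid2 and Phc1 are also members of the pluripotency list and are counted among its falls. Hmgb2, a DNA-bending protein, and Hells, a remodeller needed for DNA methylation, fell by 2.44 and 2.33. Dnmt3a, a de novo DNA methyltransferase, fell by 2.19, while the maintenance enzyme Dnmt1 had 497 and 508 on the feeder arrays, against 631, 581 and 576 on the undifferentiated arrays (-0.24 ± 0.18, adjusted p = 0.413). The genes that rose were Bmi1, a Polycomb subunit, with 327 and 309.7 on the feeder arrays, against 81.6, 56.2 and 94.3 on the undifferentiated arrays (1.96 ± 0.34, adjusted p = 0.00414), and Mbd2, a reader of methylated DNA (1.25 ± 0.27, adjusted p = 0.0113). Dnmt3a, Dnmt1, Bmi1 and Mbd2 were named after their values were seen. Mbd2 had adjusted p of 0.0901 and 0.0697 without feeder array 6 and 10. The list held 7 lower calls without any one of the 5 arrays.

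Imprinted genes, expressed from one parental copy, rose in 9 of 18 cases and 1 fell (median 1.27). Plagl1, a zinc finger factor, had 426 and 314 on the feeder arrays, against 22.95, 19.02 and 27.5 on the undifferentiated arrays (3.59 ± 0.59, adjusted p = 0.00352). Igf2, the fetal insulin-like growth factor, had 9726 and 7150.2 in feeder cells, against 1637, 3534 and 1851 in ES cells (1.92 ± 0.42, adjusted p = 0.0117), and Dlk1, a Notch-like protein, rose by 2.25. Undifferentiated array 5 was the highest ES array for Igf2. Phlda2, a growth-restraining gene of placenta, was the one that fell, with 24.05 and 19.8 on the feeder arrays, against 662, 563 and 586 on the undifferentiated arrays (-4.35 ± 0.38, adjusted p = 0.000156). Higher calls numbered 3, 7, 8, 9 and 7 without feeder array 6, feeder array 10 and undifferentiated array 1, 5 and 9. Igf2 had adjusted p of 0.109 and 0.0534 without feeder array 6 and 10, and Dlk1 0.0906 and 0.0938. Of the sex-linked genes, Xist, which silences one X chromosome in female cells, had 188 and 173 on the feeder arrays, against 40.8, 51.4 and 35.1 on the undifferentiated arrays (1.91 ± 0.41, adjusted p = 0.011), and Eif2s3y of the Y chromosome had 63.99 and 58.1 in feeder cells, against 165, 121 and 176 in ES cells (-1.22 ± 0.24, adjusted p = 0.00728). The feeder arrays were the highest of the 5 for Xist and the lowest for Eif2s3y; without feeder array 6 and 10 the adjusted p was 0.0866 and 0.0674 for Xist and 0.056 and 0.0666 for Eif2s3y.

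Glycolysis genes were lower in 7 of 21 cases with none higher (median -0.70). Lower calls were 4 with the values as deposited and 11 on the 5 arrays alone. Slc2a3, the glucose transporter GLUT3, had 40.2 and 30.5 on the feeder arrays, against 828, 599 and 557 on the undifferentiated arrays (-3.94 ± 0.27, adjusted p = 4.87e-05). Pdk1, a kinase that inhibits pyruvate dehydrogenase, had 216 and 197 in feeder cells, against 1195, 1036 and 850.1 in ES cells (-2.26 ± 0.27, adjusted p = 0.000766). Pfkp and Ldhb fell by 1.89 and 1.65, and Ldhb had an adjusted p of 0.0508 without feeder array 10. Lower calls numbered 4, 3, 4, 5 and 5 without feeder array 6, feeder array 10 and undifferentiated array 1, 5 and 9. Heat shock and stress genes mostly did not pass: 1 rose, 3 fell and 27 did not pass (median -0.08). These counts moved with the processing: 4 were higher and 6 lower with fluidics run as a block, 5 and 6 on the 5 arrays alone, and 8 and 2 with the values as deposited, against 7 and 7 at an unadjusted p below 0.05. Hsp90aa1, the inducible cytosolic chaperone, had 3002 and 2292 on the feeder arrays, against 8634, 9853 and 11596 on the undifferentiated arrays (-1.92 ± 0.32, adjusted p = 0.00375), and Gsta4, a glutathione transferase, fell by 2.65 with adjusted p of 0.0983 and 0.0716 without feeder array 6 and 10. Hspa8 fell by 0.83, and had 0.141 without feeder array 6 and 0.051 without undifferentiated array 9. Ddit3 (CHOP), a stress-induced factor, rose, with 317 and 343 on the feeder arrays, against 65.9, 85.7 and 99.5 on the undifferentiated arrays (1.90 ± 0.29, adjusted p = 0.00253).

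Antigen presentation and interferon genes had a median of 1.19, but 3 of 27 rose, 1 fell and 23 did not pass. Over all genes 10.9% were called higher and 10.8% lower. Tap1, the peptide transporter, had 145 and 167 on the feeder arrays, against 59.4, 52.04 and 48.8 on the undifferentiated arrays (1.42 ± 0.29, adjusted p = 0.00878). Gbp3 and Ifit2, interferon-induced genes, rose by 1.84 and 1.59, and H2-Q10, a secreted class I gene whose probes can bind related transcripts, fell by 0.72. For Ifit2 the only array outside the feeder group above the filter on low values was 4+11 day array 12, at 33.6. At an unadjusted p below 0.05, 11 members were higher. The count of higher members was 18 on the 5 arrays alone, 15 with fluidics run as a block, 12 with the values as deposited and 11 on the 8 arrays of the scan session. It was 1, 0, 2, 2 and 2 without feeder array 6, feeder array 10 and undifferentiated array 1, 5 and 9. Tap1 had adjusted p of 0.0573 and 0.0754 without feeder array 6 and 10, Ifit2 0.103 without feeder array 10, and Gbp3 and H2-Q10 failed in all 5 of these fits, with adjusted p up to 0.274 without feeder array 10 and 0.176 without feeder array 6.

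Markers of other cell types were read on the same arrays. None of 18 macrophage and blood markers passed limma's test (0 also at an unadjusted p below 0.05), but with fluidics run as a block Lyz2 (adjusted p = 0.0212) and Cd53 (0.0345) were higher. On the 5 arrays alone Tyrobp and Adgre1 were higher and Laptm5 lower. Their summed intensity was 1878 and 1137 on the feeder arrays, against 1237, 969 and 631 on the undifferentiated arrays, and the pan-leukocyte gene Ptprc had 14.7 and 3.63 in feeder cells, against 1.41, 1.21 and 6.45 in ES cells. None of 7 endothelial markers passed, with sums of 257 and 277 on the feeder arrays, against 224, 232 and 200 on the undifferentiated arrays, and none of 9 endodermal ones, with sums of 218 and 238 on the feeder arrays, against 197, 295 and 247 on the undifferentiated arrays; at an unadjusted p below 0.05 the endothelial count was also 0 and the endodermal count 1 in each direction, and on the 5 arrays alone Pecam1 was lower and Gata6 higher. Of 12 muscle markers 3 rose: Actc1 with 1380.4 and 637 on the feeder arrays, against 197, 233 and 159.96 on the undifferentiated arrays (2.22 ± 0.48, adjusted p = 0.011), Tnnc1 (2.22) and Acta1 (2.09), while the myogenic factor Myod1 had 62.9 and 44.3 in feeder cells, against 52.1, 50.2 and 48.6 in ES cells. A second Actc1 probe set did not pass (adjusted p = 0.162). Actc1 and Acta1 are actins, and probe sets of the actin family can bind related transcripts. The sums of the muscle list were 1894 and 946 on the feeder arrays, against 436, 495 and 428 on the undifferentiated arrays. Most of the sum on each feeder array was Actc1, and the median difference of the list was 0.09. Of 9 neural markers 2 rose: Ncam1, with 1091 and 1104 on the feeder arrays, against 161, 246 and 199.5 on the undifferentiated arrays (2.42 ± 0.41, adjusted p = 0.00402), and Nes, nestin, by which the study named its differentiated cells, with 573 and 351 in feeder cells, against 216, 196 and 165 in ES cells (1.20 ± 0.35, adjusted p = 0.0394). With fluidics run as a block Pax6 (adjusted p = 0.0178), Nefl (0.00681) and Mapt (0.0185) were lower, as they were on the 5 arrays alone. Of 5 cartilage, bone and fat markers 1 fell, Alpl, an alkaline phosphatase that ES cells also express (-1.87 ± 0.25, adjusted p = 0.00139). On the 5 arrays alone Cebpa was higher. The part of such cells in the differences above was not tested. Nes failed in all 5 fits that leave out an array, with adjusted p from 0.0691 without feeder array 10 to 0.29 without feeder array 6; without feeder array 6 Actc1 had 0.122, Acta1 0.144 and Tnnc1 0.231, and Tnnc1 also failed without feeder array 10 (0.0699) and undifferentiated array 5 and 9 (0.0798 and 0.0937).

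The groups did not overlap for any of the 112 called genes chosen by rule, which fixes the sign of their difference within each fluidics run, so only its size can vary there. Acta2 differed by 3.97 within run 1 and 4.11 within run 2, Fmod by 4.25 and 5.20, Pou5f1 by -6.63 and -7.52, and Mmp3 by -2.93 and -1.47. Run 1 has 1 feeder array and 2 undifferentiated arrays and run 2 has 1 of each, so neither gives a test. Of the 112 calls, 59 held when any one of the 5 arrays was left out; 42 were lost without feeder array 6 and 41 without feeder array 10, against 13, 12 and 18 without undifferentiated array 1, 5 and 9, and a fit without one feeder array assumes that the lone array varies like the other groups.

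**Figure D3:**
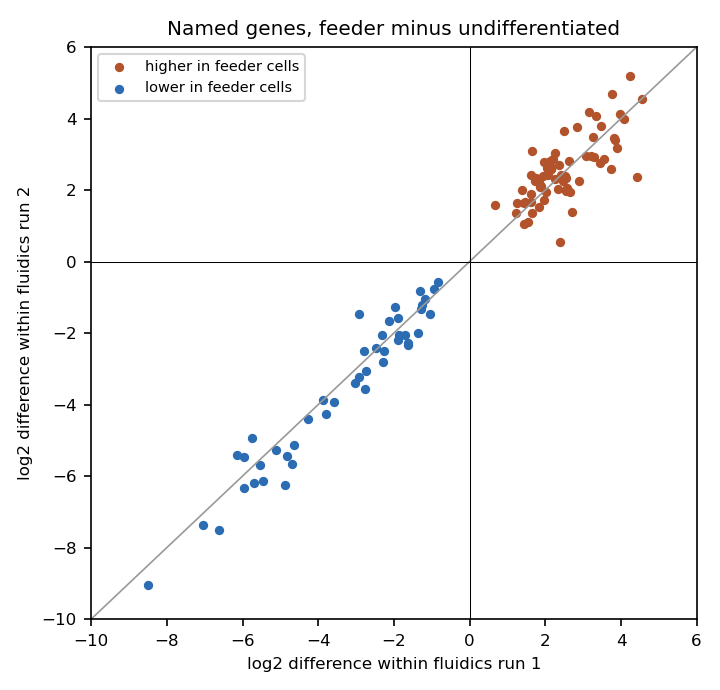
Log2 difference, feeder minus undifferentiated, within fluidics run 1 (horizontal) and run 2 (vertical) for the 112 called genes chosen by rule; orange points were called higher and blue points lower in feeder cells, and the grey line marks equality. Points lie in the quadrants of equal sign by construction, since the groups did not overlap for these genes; distance from the grey line shows how far the sizes differ between runs.

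Because ES cells were grown on feeder cells, the undifferentiated arrays may hold RNA of both; this was not tested. For the 67 named genes that rose, the median intensity on undifferentiated arrays 1, 5 and 9 was 17.1%, 17.4% and 15.9% of the feeder mean, below 100 by the choice of the genes. It varied between genes: 2.33% for Fmod, 3.71% for Eln and 6.32% for Acta2, but 17.8% for Col1a1, 25.5% for Serpinf1 and 42.8% for Jak2. The quartiles of the genes were 9.50% and 23.9% on array 1, 10.9% and 23.5% on array 5, and 7.86% and 21.9% on array 9. The differentiated arrays, also set against the feeder mean, had medians of 27.5%, 16.9% and 37.1% after 4+8 days and 42.9%, 28.2% and 27.8% after 4+11 days, with a wider spread; the mean exceeded that of feeder cells for 7 of the 67 genes after 4+8 days and 8 after 4+11 days. Among these was Plagl1, at 6.26% in undifferentiated cells, 261% after 4+8 days and 239% after 4+11 days, while Serpinf1 was lower in the differentiated cells, at 25.5% in undifferentiated cells, 3.56% after 4+8 days and 7.16% after 4+11 days. The 4+8 day arrays come from another chip lot and scan session, so lot and group cannot be told apart for them.

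**Figure D4:**
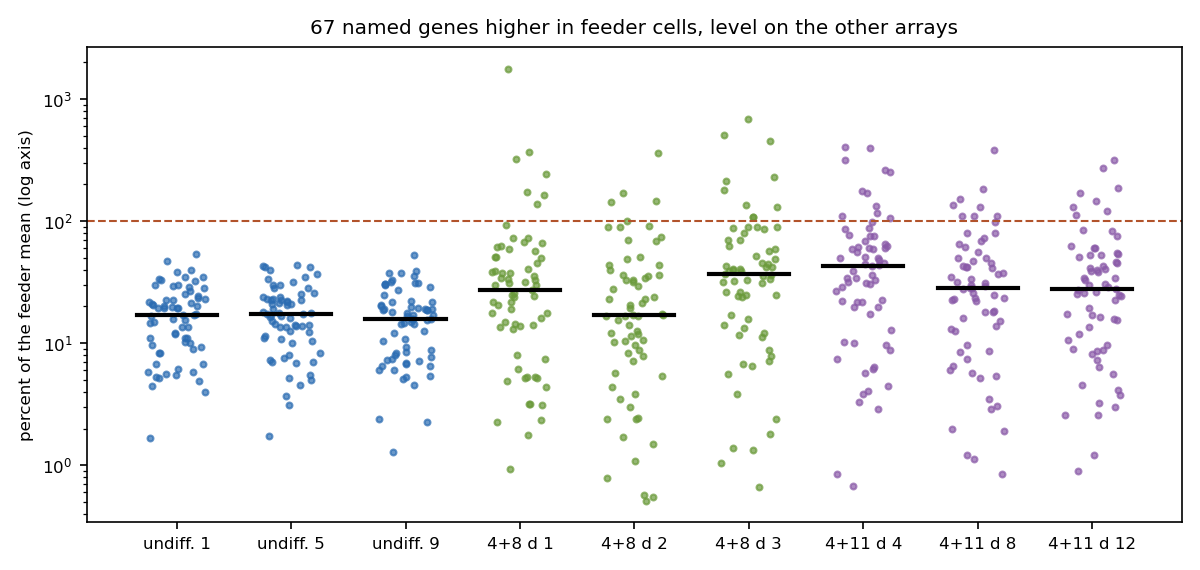
Intensity on each undifferentiated (undiff.) and differentiated (4+8 d and 4+11 d) array as percent of the mean of the 2 feeder arrays (log axis), for the 67 named genes called higher in feeder cells. Points are genes, black bars medians, and the dashed line is the feeder mean; the undifferentiated arrays have medians from 15.9% to 17.4%.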

How the data were processed

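RNA was hybridised to 11 Affymetrix MG_U74Av2 arrays (12488 probe sets, 66 of them controls). The deposited values are intensities on a linear scale: per their trimmed means, the authors scaled the 3 arrays of 4+8 days to a common value and the other 8 not; which program combined the probes was not given in the labels or headers, and detection calls were not used. The number of arrays limits the precision.

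The arrays were quantile normalised over all probe sets, and the controls were left out afterwards. Probe sets above 33.4 (the 40th percentile) on at least 2 arrays were kept, 8 (the 20th percentile) was added, and log2 values were fitted with limma 3.58.1 (R 4.3.3) over all 11 arrays with 4 groups, two-sided, with Benjamini-Hochberg adjustment over 8940 probe sets. The fit was tested on simulated data. A gene is its probe set with the highest mean; of 12422 probe sets, 10833 have 1 gene symbol, 396 several and 1193 none. Fluidics runs were read from the scanner's settings files.

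Named were the 15 largest rises and falls with no overlap between groups, up to 4 called members of each list by size of difference, and fixed markers. Of the fixed markers, Vim, Lif and Fgf2 were not tested. Vim, a member of the fibroblast and contractile lists, was on the array but fell below the filter on low values. Other members are said to be chosen after their values were seen. The members and lists were chosen with earlier results of these data known. Alternatives varied normalisation, filter, pseudocount, fold limit, samples, run and wash protocol.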

Additional observations from a re-analysis of the deposited data

How the results depend on the processing

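No paired analysis was possible because feeder and undifferentiated arrays share no replicate numbers; fluidics run, which holds arrays of both groups, was fitted as a block in its place. The count of probe sets called, 1820 (898 higher, 922 lower), was 3135 (1556 and 1579) with fluidics run as a block on 8 arrays, 3373 (1735 and 1638) on the 5 arrays alone, 2843 (1453 and 1390) on the 8 arrays of the scan session, 119 (41 and 78) when a 2-fold limit was tested, and 780 (368 and 412) without the arrays of the other wash protocol; with the values as deposited it was 1703 higher and 344 lower. Leaving out one array gave 487 to 1228 calls, 216 to 586 higher and 271 to 642 lower. Higher calls were 49.3% of all, 83.2% as deposited and 34.5% under the 2-fold limit. The undifferentiated arrays 1, 5 and 9 had 13.8%, 9.08% and 11.4% of the feeder mean as deposited, and 15.997%, 16.2% and 14.6% when scaled to a common trimmed mean. The sign turned for Cdh1 (0.12) and Cdk1 (0.11) as deposited, for Ccnd1 without feeder array 6 (-0.013, with differences up to 0.30 when any one array was left out) and for Mki67 without feeder array 10 (-0.17, up to 0.71). Of the 112 named calls, none was lost on the 5 or the 8 arrays alone or with the run block (Il11, named outside that rule, was lost on the 5 arrays and with the block), 1 under trimmed-mean scaling (Col1a1, adjusted p 0.0989), 7 as deposited (Kif22, Cdc20, Cdc25a, Aurka, H2-Q10, Hspa8 and Eif2s3y, adjusted p 0.0843 to 0.36), 6 without the filter, 7 and 1 with the low and high pseudocount, 32 without the other wash protocol and 74 under the 2-fold limit. For most lists the wash alternative lowered the counts, to 7 for collagens and 2 for collagen processing. The cause of these changes was not tested. The fits without an array have fewer samples, as do those on the 5 and the 8 arrays alone, which gave more calls.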
